A study of Homo sapiens with 2 samples.

Results

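The genes described here are the 3 RUNX transcription factors, their shared non-DNA-binding partner CBFB and the Groucho corepressors TLE1 to TLE5. They were taken as every probe of a whole human genome array whose RefSeq accession belongs to 1 of these 9 genes, which gave 17 of the 41000 different probes, for 9 of the 17240 genes that could be named. Cells of SKOV3, a human ovarian adenocarcinoma line, had been transduced with a lentiviral pLKO.1-puro vector coding for a short hairpin RNA against RUNX2, and clone 3 (cl-sh3) was grown under puromycin selection. The control was a mock-transfected SKOV3 clone made with the same vector carrying a scramble sequence, so both clones share the vector, the infection and the selection. Each side is 1 clone, and clonal differences and the knockdown cannot be told apart. Cyanine-labelled cRNA of both was hybridized together in 2 hybridizations, with the control in Cy3 and cl-sh3 in Cy5 in hybridization 1 and the dyes reversed in hybridization 2. The hybridizations hold the same 2 RNAs on 1 slide, so they are 1 replicate. No p-value can be had from them, and the spread between them is technical error. In RNA of a whole culture, fewer cells with a transcript and less of it per cell cannot be told apart.

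RUNX proteins bind DNA through a conserved Runt domain, and CBFB, which does not touch DNA itself, strengthens that binding. RUNX1 is best known from blood formation, RUNX2 from bone formation and RUNX3 from T cells, sensory neurons and gut epithelium, and each has been studied in epithelial tumours. Depending on the partner they recruit, RUNX proteins activate or repress, and repression can run through TLE1 to TLE4, which bind a short peptide at the C-terminal end of RUNX proteins. TLE proteins have no DNA-binding domain of their own and also serve HES, HEY, engrailed, FOXA and TCF factors. TLE5, formerly AES, is a short family member without the C-terminal propeller domain and can oppose the longer ones.

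RUNX genes are transcribed from alternative starts, and RUNX sites near those starts are a known feature of the family. The sequence before the first start of RUNX2 and of RUNX3 is therefore shown. The form ACCACA of the RUNX core, or TGTGGT on the other strand, is in capitals. Both sequences are from RefSeq on GRCh38.p14, are written 5′ to 3′ on the strand of the gene and end at the last base before the start. The RUNX2 stretch is chr6:45328080-45328329 on the plus strand and the RUNX3 stretch is chr1:24965011-24965260 on the minus strand.
RUNX2: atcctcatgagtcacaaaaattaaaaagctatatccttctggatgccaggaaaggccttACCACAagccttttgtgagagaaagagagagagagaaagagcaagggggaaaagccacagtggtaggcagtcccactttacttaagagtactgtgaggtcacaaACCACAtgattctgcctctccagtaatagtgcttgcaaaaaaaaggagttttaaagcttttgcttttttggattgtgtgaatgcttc
RUNX3: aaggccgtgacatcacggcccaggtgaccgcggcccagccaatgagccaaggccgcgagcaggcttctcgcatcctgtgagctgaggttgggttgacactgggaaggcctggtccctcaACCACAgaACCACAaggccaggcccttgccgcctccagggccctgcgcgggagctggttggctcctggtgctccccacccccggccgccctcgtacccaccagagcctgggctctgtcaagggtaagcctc

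In the window from 250 bases before to 50 bases after a start, the first RUNX2 start held 4 matches to the RUNX core on either strand, at positions -191, -87, 17 and 25 from the start. The first RUNX3 start held 2, at -131 and -123. Among the 35116 windows of the same table, 13.07% held at least 1 match, 459 windows, or 1.31%, held at least 2, and 5 windows, or 0.014%, held at least 4. The longest run of letters that the first RUNX2 and RUNX3 windows share is 18 bases long and holds 2 of the matches. It stands at 15 to 32 after the RUNX2 start (chr6:45328344-45328361, plus strand) and from -133 to -116 before the RUNX3 start (chr1:24965126-24965143, minus strand). No other window of the table held it on either strand. The run was picked from these 2 windows, and starts that were not listed were not searched. Its absence elsewhere in the table thus does not show that it is particular to RUNX2 and RUNX3.
Shared run: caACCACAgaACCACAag

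The table listed 15 starts of 8 of the 9 genes, without CBFB, and 3 of them held this form of the core. The third was the TLE3 start that lies last in the direction of transcription, with matches at -42 and -3. The windows of RUNX1, TLE1, TLE2, TLE4 and TLE5, the other TLE3 windows and the second windows of RUNX2 and RUNX3 held no match. No other form of the RUNX site was searched, so this does not show that these windows lack RUNX sites. RUNX1 had 1 listed start, and any start that was not listed was not searched. A match is a description of the letters and was not tested for binding, and the array probes do not tell which start a transcript came from.

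RUNX2, the gene targeted by the hairpin, was 3.18-fold lower in cl-sh3 at 1 of its 3 probes, while the other 2 had mean log2 ratios of 0.02 and -0.23. The brightest probe, A_32_P161762 of transcript NM_004348, read 1084 intensity units for cl-sh3 in Cy5 and 2144 for the control in Cy3 in hybridization 1. With the dyes reversed it read 777 for cl-sh3 in Cy3 and 2169 for the control in Cy5. The control signal was thus the higher one under both dye assignments, although over all spots that were not controls the median Cy5 signal was above the median Cy3 signal, at 902.5 against 451 in hybridization 1 and 684 against 507.5 in hybridization 2. Normalized log2 ratios of cl-sh3 over control were -2.04 and -1.30, and averaged -1.67 ± 0.52 (SD of 2 hybridizations of 1 replicate). This is 31.4% of the control level, and counted from the lowest mean the probe ranked 31 among 36060.

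The second probe of the same transcript, A_24_P69267, gave 775 for cl-sh3 and 349 for the control in hybridization 1, and 223 and 412 in hybridization 2. In each hybridization the RNA in Cy5 had the higher signal, and the log2 ratios of 0.18 and -0.13 lay on opposite sides of 0, with a mean of 0.02 ± 0.22. The third probe, A_32_P148058 of transcript NM_001015051, gave 423 and 210, then 153 and 303.5, for cl-sh3 and control in turn. Its log2 ratios were -0.29 and -0.17, with a mean of -0.23 ± 0.08, and the control was well above background in 1 of the 2 hybridizations. Of the negative control spots, 95% lay below 88.0 in Cy3 and 255 in Cy5 in hybridization 1, and below 83.7 and 291 in hybridization 2, so the third probe's Cy5 signal of 303.5 was just above that level.

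**Figure D1:**
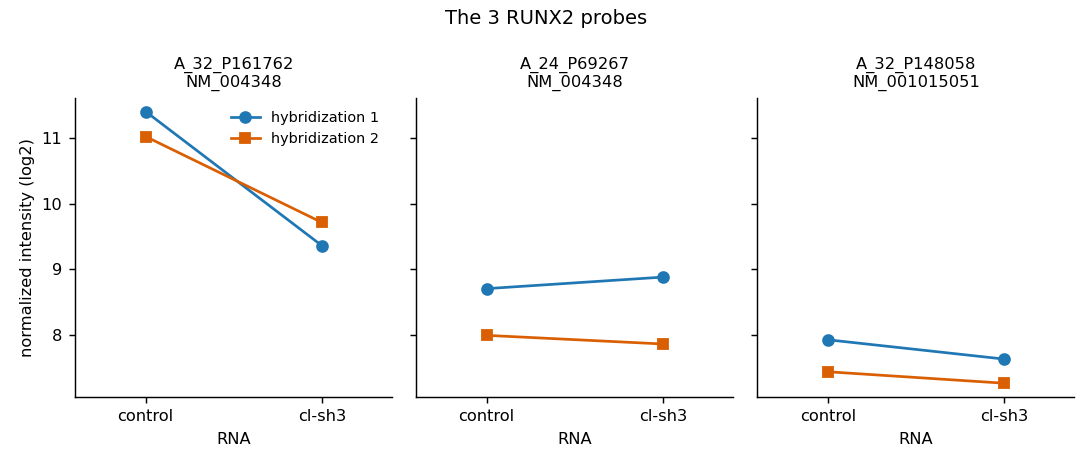
Normalized log2 intensity (y axis) of the control and cl-sh3 RNA (x axis) at the 3 RUNX2 probes, with 1 line for each hybridization. The first probe falls from control to cl-sh3 in both hybridizations, by 4.10-fold and 2.47-fold, and the lines of the other 2 probes are nearly level.

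The 3 RUNX2 probes spanned 1.69 log2 units between the lowest and the highest mean. Among the 5565 genes with several detected probes the median span was 0.19 and the 95th percentile 0.72, and the RUNX2 span was at percentile 99.93. There were 48 genes, RUNX2 among them, with a 2-fold lower probe and several detected probes. Of these, 5 had every probe 2-fold lower, 43 did not, and 12 had a probe with a mean above -0.3. These genes were picked for a probe beyond the cut, so the counts do not show how common the RUNX2 span is. The positions of these probes on the transcripts and of the hairpin's target were not used here, so where they lie relative to each other is not given.

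The rule of the study asks for a difference of 2-fold or more, in 1 direction, in each of the 2 hybridizations. By it, 1 of the 17 member probes was lower, the brightest RUNX2 probe, beside 0.394% of all 36060 probes tested, and 0 of 17 were higher, beside 0.122%. At 1.5-fold in both hybridizations the same RUNX2 probe was the sole member called, where 2.32% of all probes were lower and 1.35% higher. Of the members, 7 were above 0 in both hybridizations (29.8% of all probes were), 4 were below 0 in both (27.3% of all probes were), and 6 had opposite signs. The 16 probes other than the brightest RUNX2 one had means between -0.39 and 0.71 with a median of 0.12, and the median over all probes was 0.01.

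**Figure D2:**
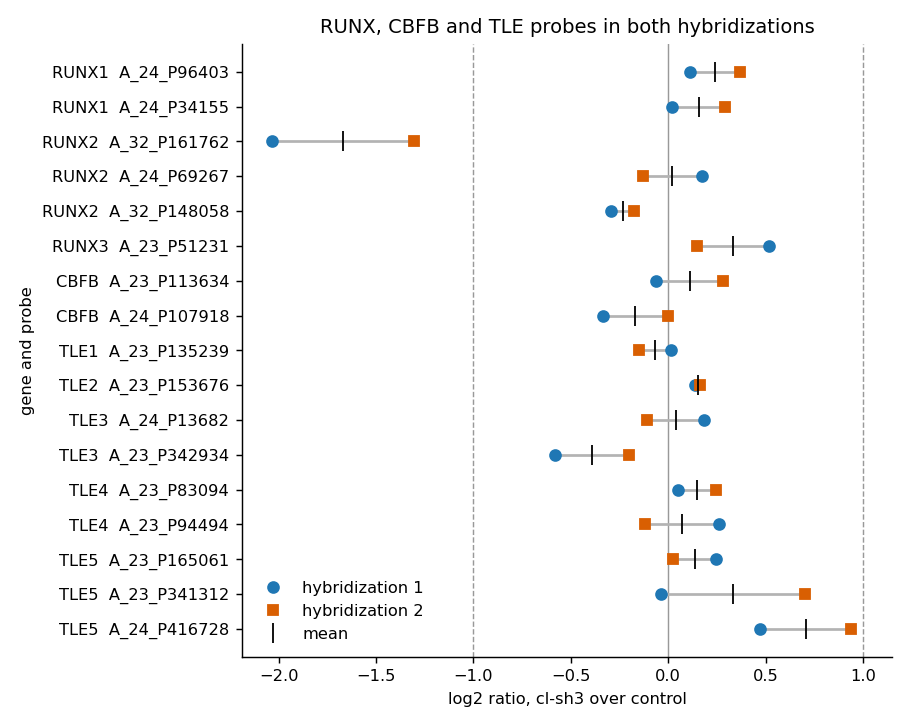
Log2 ratio of cl-sh3 over control (x axis) for each of the 17 member probes (y axis), with circles for hybridization 1, squares for hybridization 2 and a tick for their mean. Dashed lines mark 2-fold, and the RUNX2 probe A_32_P161762 is the one member beyond them in both hybridizations.

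RUNX1, the family member that drives definitive blood formation, was not called at either of its probes. Its brightest probe, A_24_P96403 of NM_001001890, read 2041 for cl-sh3 and 993 for the control in hybridization 1 and 1371 and 1255 in hybridization 2. The log2 ratios were 0.11 and 0.37, a mean of 0.24 ± 0.18 or 1.18-fold. The other probe, A_24_P34155 of NM_001122607, had ratios of 0.02 and 0.29 with a mean of 0.16, at signals of 411 and 162, then 205 and 311.5, and the control was well above background in 1 hybridization. Both probes lay above 0 in each hybridization by less than 1.5-fold, and their means differed by 0.08.

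RUNX3, known for roles in T cells and sensory neurons, has 1 probe, A_23_P51231 of NM_001031680. It read 514 for cl-sh3 and 163 for the control in hybridization 1, and 230 and 389 in hybridization 2, so the RNA in Cy5 was the higher one each time. After normalization the log2 ratios were 0.52 and 0.15 with a mean of 0.34 ± 0.26, or 1.26-fold, at percentile 91.9 of all probes. The hybridizations differed by more than the mean itself. The probe is dim, and its lowest signal of 163 lay below the lowest signals of the fibroblast markers, 184.5 to 234. These values therefore do not show by themselves that RUNX3 is expressed.

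CBFB, which holds RUNX proteins in their DNA-binding form, gave probe means on either side of 0. The probe of NM_001755, A_23_P113634, read 6114.5 for cl-sh3 and 3586 for the control in hybridization 1 and 4764.5 and 4283.5 in hybridization 2, with log2 ratios of -0.06 and 0.28 and a mean of 0.11 ± 0.24. The probe of NM_022845, A_24_P107918, read 1148 and 715, then 839 and 989, with ratios of -0.34 and -0.00 and a mean of -0.17 ± 0.24. The means lay 0.28 apart, less than the difference between hybridizations at either probe, which was 0.34 at both.

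None of the 9 TLE probes reached 2-fold or 1.5-fold in both hybridizations. Their means ran from -0.39 to 0.71 with a median of 0.14, and 8 of the 9 were within 0.5 of 0. Of the long corepressors, TLE1 had log2 ratios of 0.01 and -0.15 at A_23_P135239, where signals ran from 9328.5 to 17776, and a mean of -0.07 ± 0.11. TLE2 had ratios of 0.14 and 0.17 at A_23_P153676, with signals of 2024 for cl-sh3 and 972.5 for the control, then 1120 and 1200. The TLE2 values differed by 0.03 between hybridizations, the smallest difference of any member, and their mean of 0.15 ± 0.02 was 1.11-fold.

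TLE3 was measured by 2 probes of NM_005078 that did not move together. A_24_P13682 read 999 for cl-sh3 and 436 for the control, then 508 and 734, with log2 ratios of 0.19 and -0.11 and a mean of 0.04 ± 0.21. A_23_P342934 read 415 and 262, then 220.5 and 454.5, with ratios of -0.58 and -0.20 and a mean of -0.39 ± 0.27. The second probe was below 0 in both hybridizations, at 1.31-fold lower, and was the lowest TLE mean, while the first lay on either side of 0.

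TLE4 had ratios of 0.05 and 0.24 at A_23_P83094 of NM_007005, a mean of 0.15 ± 0.14, with signals of 2779 for cl-sh3 and 1449 for the control, then 1770 and 1708. The other probe of that transcript, A_23_P94494, had ratios of 0.26 and -0.12, a mean of 0.07 ± 0.27, and a control signal that was well above background in 1 of the 2 hybridizations. The scanner software's own log ratio gave 0.50 as the mean of this second probe, with both hybridizations above 0.

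TLE5, the short member, had the highest probe mean among the 9 genes. At A_24_P416728 of NM_198970 the signal was 1257 for cl-sh3 and 460.5 for the control in hybridization 1, and 972.5 and 653.5 in hybridization 2, so cl-sh3 had the higher signal under both dye assignments. The log2 ratios were 0.47 and 0.94, a mean of 0.71 ± 0.33 or 1.63-fold higher, at percentile 98.7 of all probes. Hybridization 1 alone was 1.39-fold and hybridization 2 alone 1.92-fold, so the 1.5-fold rule was met in 1 of them.

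The other 2 TLE5 probes, both of NM_198969, had smaller means. A_23_P165061 read 37416.6 for cl-sh3 and 16235 for the control, then 22311.1 and 22997, with ratios of 0.25 and 0.03 and a mean of 0.14 ± 0.16. A_23_P341312 read 2865 and 1583, then 2598.5 and 1793, with ratios of -0.04 and 0.70 and a mean of 0.33 ± 0.52. All 3 TLE5 means were above 0, and they spanned 0.57, at percentile 90.1 of the spans of genes with several probes.

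**Figure D3:**
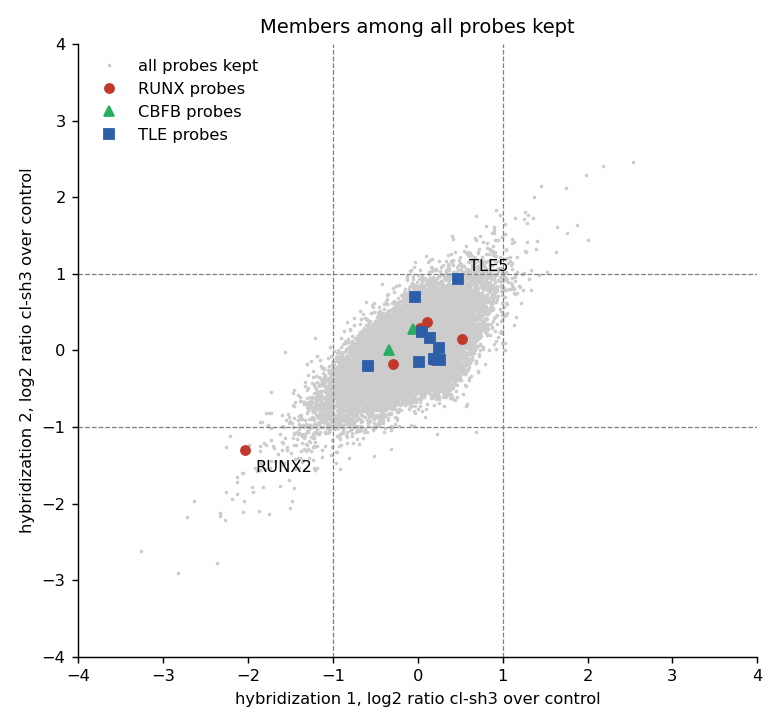
Log2 ratio of cl-sh3 over control in hybridization 1 (x axis) against hybridization 2 (y axis) for all 36060 probes (grey) and for the RUNX, CBFB and TLE probes (coloured), with dashed lines at 2-fold. The brightest RUNX2 probe lies in the lower left beyond both lines, the TLE5 probe A_24_P416728 lies highest among the members, and the rest lie in the central cloud.

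The technical spread sets what these values can show. Over all probes the hybridizations differed by a median of 0.22 log2 units, with a 95th percentile of 0.63, and over the 17 member probes the median was 0.31. The 2 members above that 95th percentile were the brightest RUNX2 probe, at 0.73, and the TLE5 probe A_23_P341312, at 0.74. The RUNX2 mean of -1.67 was larger in size than its own difference between hybridizations, and the TLE5 mean of 0.33 was smaller than its difference. All 17 probes had 1 spot on each array, and cl-sh3 was well above background in both hybridizations at all 17, the control at 14.

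RUNX2 was compared with its neighbours on chromosome 6. The 2 genes listed on either side of it in RefSeq, which are non-coding RNA genes and a pseudogene, matched no probe. The protein-coding neighbours, chosen after this was seen, were SUPT3H and CDC5L on one side and CLIC5 and ENPP4 on the other. SUPT3H, a subunit of a histone acetyltransferase complex, had log2 ratios of -0.82 and -0.21. CDC5L, a splicing factor, had -0.32 and 0.23, and ENPP4 had 0.18 and -0.42. CLIC5, a chloride channel family protein, had 0.16 and 0.15 at one probe and -0.11 and -0.14 at the other. None of these 4 genes was 2-fold changed in both hybridizations.

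Among the 16153 genes with a detected probe, each taken at its brightest probe, 14 were lower than RUNX2 in both hybridizations. The 5 genes closest to RUNX2 in the plane of the 2 log2 ratios were UNC5B, GDF15, RCAN1, CNIH3 and BEX4, at distances from 0.08 to 0.26 log2 units. UNC5B, a netrin receptor, had ratios of -1.99 and -1.24. GDF15, a secreted cytokine induced by cell stress, had -1.86 and -1.25, and RCAN1, an inhibitor of calcineurin, had -1.81 and -1.21. CNIH3, an auxiliary protein of glutamate receptors, had -1.84 and -1.47. The likeness is over 2 hybridizations of 1 pair of RNAs.

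Genes that work with RUNX proteins were read from a list of 29 partners and regulators, of which 27 had a detected probe. Each gene was taken at its brightest probe. None was 2-fold changed in both hybridizations, 1 was 1.5-fold lower and 0 were 1.5-fold higher, beside 2.32% and 1.35% of all probes, and the median was 0.08. The ETS1 value was the lowest, at -0.75 and -0.74 for this transcription factor that binds DNA beside RUNX1. The means of the 3 detected ETS1 probes ran from -0.74 to 0.15. HDAC3, a histone deacetylase that can bind RUNX2, had -0.57 and -0.55 at its 1 probe, and the 2 hybridizations differed less here than at most probes. HIPK2, a nuclear kinase that can phosphorylate RUNX1, had -0.93 and -0.15, with other probes up to -0.02. YAP1 was counted at a brightest-probe mean of 0.08, while its other detected probe had a mean of 0.95.

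The factors that bring TLE proteins to DNA were read from another list of 29, of which 27 had a detected probe. The brightest probe of each gene was used. None was 2-fold changed in both hybridizations, 1 was 1.5-fold lower and 2 were 1.5-fold higher, beside the same 2.32% and 1.35% of all probes, and the median was 0.01, the same as over all probes. HEY1, a repressor downstream of Notch, had log2 ratios of -1.14 and -0.92. It was 2-fold lower in hybridization 1 and just short of 2-fold in hybridization 2, and its mean was 2.05-fold lower. HES7, a repressor of the segmentation clock, had 0.70 and 0.99, a mean of 1.79-fold higher. EN2, an engrailed homeodomain protein, had 0.63 and 0.75, a mean of 1.61-fold higher. Each of these 3 has 1 detected probe.

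Genes that TCF factors switch on under Wnt signalling, and that TLE proteins can hold silent, were read from a list of 8. All 8 had a detected probe. At the brightest probes none was 1.5-fold or 2-fold changed in both hybridizations, and the median was -0.02. SP5, a Wnt-induced zinc finger factor, had 0.66 and 0.30 at its brightest probe, and the means of its 3 probes ran from -0.01 to 0.48. CCND1, cyclin D1, had -0.63 and -0.19 at its brightest probe, while another of its 3 probes had a mean of 0.49. RNF43, which removes Wnt receptors from the cell surface, had 0.29 and 0.38. TLE6, a Groucho relative outside the 9 genes, had 0.25 and -0.15.

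**Figure D4:**
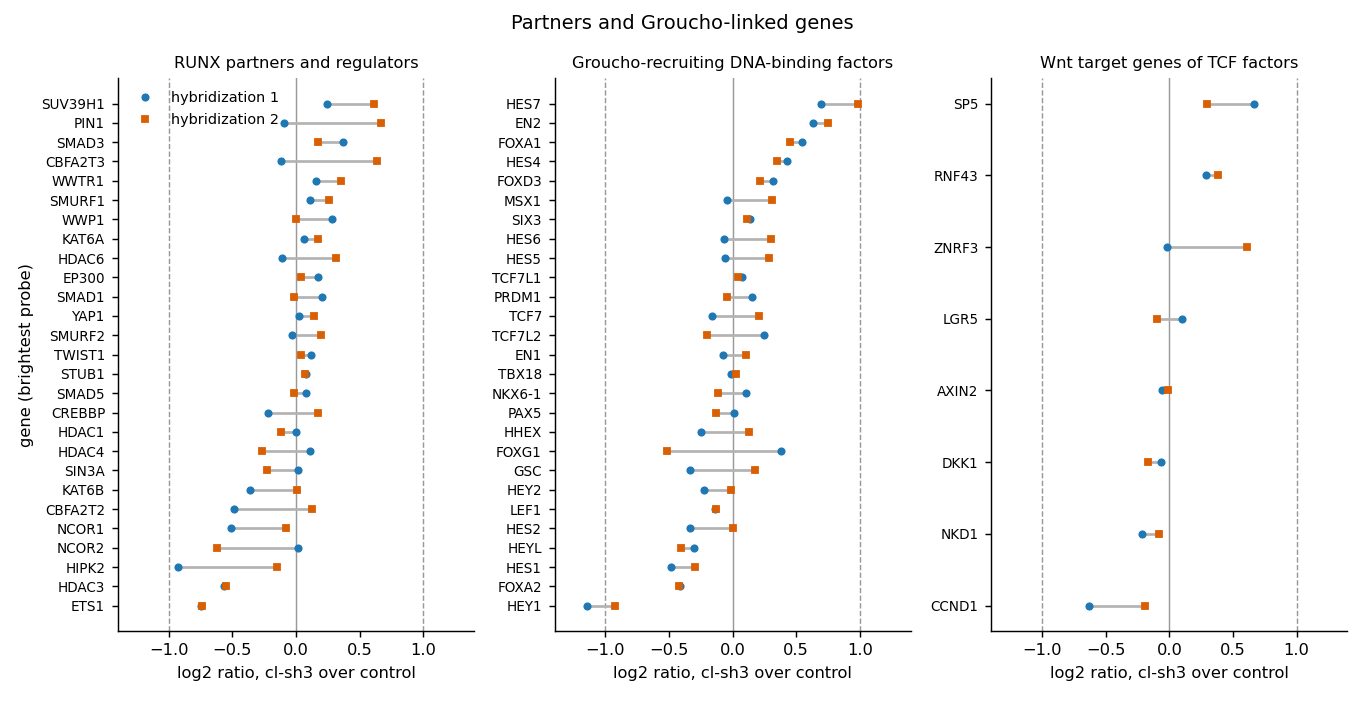
Log2 ratio of cl-sh3 over control (x axis) in hybridization 1 (circles) and hybridization 2 (squares) for the brightest probe of each gene (y axis) of the RUNX partners, the factors that recruit Groucho proteins and the Wnt targets, with dashed lines at 2-fold. HEY1 lies beyond the line in hybridization 1, and no gene does in both.

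The cells were checked against markers. All 11 markers of ovarian epithelial carcinoma were well above background in both RNAs, among them the keratins KRT7, KRT8, KRT18 and KRT19. The same flag was carried in both RNAs by 3 of the 3 fibroblast markers with a probe, by 4 of 5 leukocyte markers and by 2 of 3 endothelial markers. The lowest signals of the ovarian markers WT1, MUC16 and MSLN were 207, 180 and 144, beside 184.5 to 234 for the fibroblast markers. The flag at a dim probe, of these ovarian markers or of a RUNX or TLE gene, thus does not by itself show expression. At their brightest probes the log2 means of the ovarian markers ran from -0.66 for ERBB2 to 0.83 for KRT7, and those of the other cell types from -0.15 to 0.18.

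The mean of the brightest RUNX2 probe lay between -1.76 and -1.58 under 7 other treatments of the intensities, and the probe was 2-fold lower in both hybridizations under each of them. The TLE5 probe A_24_P416728 had means from 0.67 to 0.84 and was not called 2-fold under any. The dim RUNX2 probe A_32_P148058 ranged from -0.56 to -0.08.

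**Figure D5:**
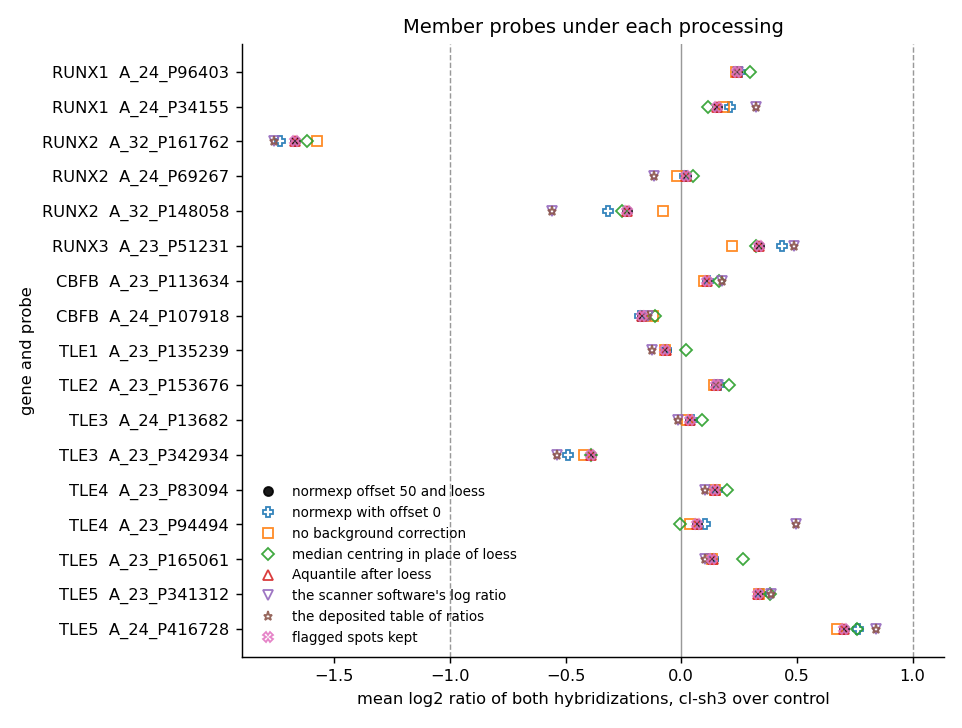
Mean log2 ratio of cl-sh3 over control (x axis) of each member probe (y axis) under the processing used here (filled circle) and 7 alternatives (open symbols), with dashed lines at 2-fold. The brightest RUNX2 probe stays between -1.76 and -1.58, and no other member probe reaches 2-fold under any of them.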

How the data were processed

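The members and gene lists were chosen with earlier results of these data known. The authors deposited spot intensity values read by Agilent Feature Extraction (10.5.1.1 per the file headers, 8.5.1.1 in the submitters' processing notes), with flags for outliers and for signal well above background, and log10 ratios of Cy5 over Cy3 made by that software. The authors' table of log10 ratios was an alternative only. Median intensities were corrected with normexp (offset 50) over the median local background and normalized by loess in limma 3.58.1 under R 4.3.3. This offset draws dim ratios toward 0. Control spots and outlier spots were left out, and each ratio is log2 with cl-sh3 in the numerator, its sign reversed for the dye swap. A probe counted as detected if 1 RNA, the same on each array, carried the flag for signal well above background, which held for 36065 of 41000 probes, 36060 of them with a value. The steps were tested on simulated data with large changes at bright spots only, which does not cover dim probes or small changes.

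The probe annotation was made on hg18 and holds no symbols used here. Accessions were named through RefSeq of GRCh38.p14, which held 18023 of 19228 RefSeq accessions. It named 15 member probes. The 2 probes of NM_004348 were named RUNX2 from the study's supplementary gene list. Named genes are all members, the 3 genes of each list with the largest mean change and any 2-fold changed, the neighbours of a changed member, and the 5 genes nearest to RUNX2. YAP1 was added for its second probe. The number of arrays limits the precision. Python 3.11.15, numpy 2.4.6, pandas 2.3.3 and matplotlib 3.10.9 were used.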

Additional observations from a re-analysis of the deposited data

How the results depend on the processing

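The count of 1 member probe called 2-fold did not change under any alternative, and it was the RUNX2 probe each time. Over all probes, 186 were called in the processing used here, 356 with the software's log ratio, 354 with the deposited table, 594 in hybridization 1 alone (88 higher and 506 lower), 415 in hybridization 2 alone (219 higher and 196 lower), 343 on the mean of both and 1324 at 1.5-fold. Of the listed partners, Groucho-recruiting factors and Wnt targets, 1 gene, HEY1, was called in hybridization 1 alone and 1 gene, again HEY1, on the mean of both, against 0 under the other 2-fold alternatives. Of the 112 values of the 16 other member probes under 7 alternatives, 7 changed sign, at 4 probes: A_24_P69267 of RUNX2 (lowest -0.12), TLE1 (0.02), A_24_P13682 of TLE3 (-0.02) and A_23_P94494 of TLE4 (-0.00 with median centring, but 0.50 with the software's log ratio and the deposited table). The cause was not tested. Averaging all probes of a gene gave -0.63 in place of -1.67 for RUNX2, -0.18 in place of 0.04 for TLE3, 0.39 in place of 0.14 for TLE5 and -0.03 in place of 0.11 for CBFB. No paired analysis was possible because both hybridizations hold the same 2 RNAs and make 1 replicate. Dim probes near the negative controls, such as A_32_P148058, limit what these arrays show of RUNX2 beyond its brightest probe. The other RUNX2 probe, A_24_P69267, was well above background for both RNAs in both hybridizations, with a mean of 0.02. Why it differed from the brightest probe was not tested.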
